A study of Homo sapiens with 5 samples.

Results

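The genes described here are 9 enzymes of serine synthesis and folate-bound one-carbon metabolism, out of 65217 human gene identifiers in the deposited gene table. They were taken by name and matched by Ensembl identifier: PHGDH, PSAT1 and PSPH of serine synthesis, SHMT1 and MTHFD1 of the cytosolic folate pathway, and SHMT2, MTHFD2, MTHFD1L and ALDH1L2 of the mitochondrial one. All 9 were found, and all 9 passed the filter on low counts. Their RNA was measured in REH, an established human B cell precursor leukaemia line with the t(12;21) ETV6-RUNX1 (TEL-AML1) translocation, grown as a xenotransplant. The brain group (3 libraries) is REH cells collected from the leptomeninges, and the spleen group (2 libraries) is REH cells collected from the spleen, so that the comparison asks how leukaemia cells of the central nervous system differ from those of a peripheral organ. Hosts of both groups were NOD.Cg-PrkdcscidIl2rgtm1Wjl/SzJ (NSG) mice transplanted at 6 to 10 weeks of age, a strain that lacks its own T, B and natural killer cells and keeps myeloid cells. Each library pooled the RNA of 5 mice of 1 experimental occasion after a Ficoll gradient, and per the labels the third spleen library failed quality control. A single cell line was used, so the groups describe that line and not leukaemias in general.

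Serine is made from the glycolytic intermediate 3-phosphoglycerate by PHGDH, PSAT1 and PSPH in turn. SHMT enzymes then split serine into glycine and a carbon unit carried by tetrahydrofolate. MTHFD enzymes change the oxidation state of that unit, usually from serine to formate in mitochondria and from formate back to folate-bound carbon in the cytosol, where purines and thymidylate are built from it. The same carbon units are the target of antifolate drugs used in acute lymphoblastic leukaemia.

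Gene table totals ranged from 38387991 to 48764202 estimated counts per library. Mouse transcripts took 5.70%, 2.58% and 2.64% of all estimated counts in brain replicates 1 to 3, and 6.33% and 8.87% in spleen replicates 1 and 2, so the mouse share was lower in every brain library than in either spleen library. Of 9 markers of B lineage blasts, 8 had a mean of at least 1 CPM (counts scaled to library size, with TMM normalisation), and the surrogate light chain gene VPREB1 was at 0 in every library. Summed over that list, levels were 5397 to 5496 CPM in brain and 6111 and 6550 CPM in spleen. Of 7 markers of human T, myeloid and erythroid cells, summed at 27.6 to 38.6 CPM in brain and 16.98 and 22.5 CPM in spleen, MPO and CSF1R were the 2 with a mean of at least 1 CPM. In these bulk libraries fewer cells with a transcript and less RNA per cell cannot be told apart.

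None of the 9 enzymes passed the test between sites. With edgeR (quasi-likelihood test, p adjusted by Benjamini and Hochberg over the 20419 genes tested, threshold 0.05), 0 of 9 were higher and 0 lower in brain, where 6.01% of all genes tested were higher, 3.5% lower and 9.51% either. At an unadjusted p under 0.05, 0 were higher and 1 was lower, where 14.2% of all genes tested were higher and 11.3% lower, and by the DESeq2 Wald test 0 were higher and 1 lower (9.16% of all genes higher and 8.07% lower by that test). The one gene concerned was MTHFD1 in both cases. The median log2 fold change, brain over spleen, was 0.09 over the 9 enzymes, with a range of -0.37 to 0.43, and 0.0066 over all genes tested. Brain and spleen CPM values did not overlap for 1 of the 9, which was lower in brain, against 42.8% of all genes tested, 23.3% above and 19.5% below in brain. On the TPM scale used below for levels, taken over human transcripts, 4 of the 9 did not overlap, with SHMT2 and MTHFD2 above and SHMT1 and MTHFD1 below in brain, where 18.1% of genes with a TPM lay above and 18% below. The separation of SHMT1, SHMT2 and MTHFD2 thus depended on the scale.

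**Figure D1:**
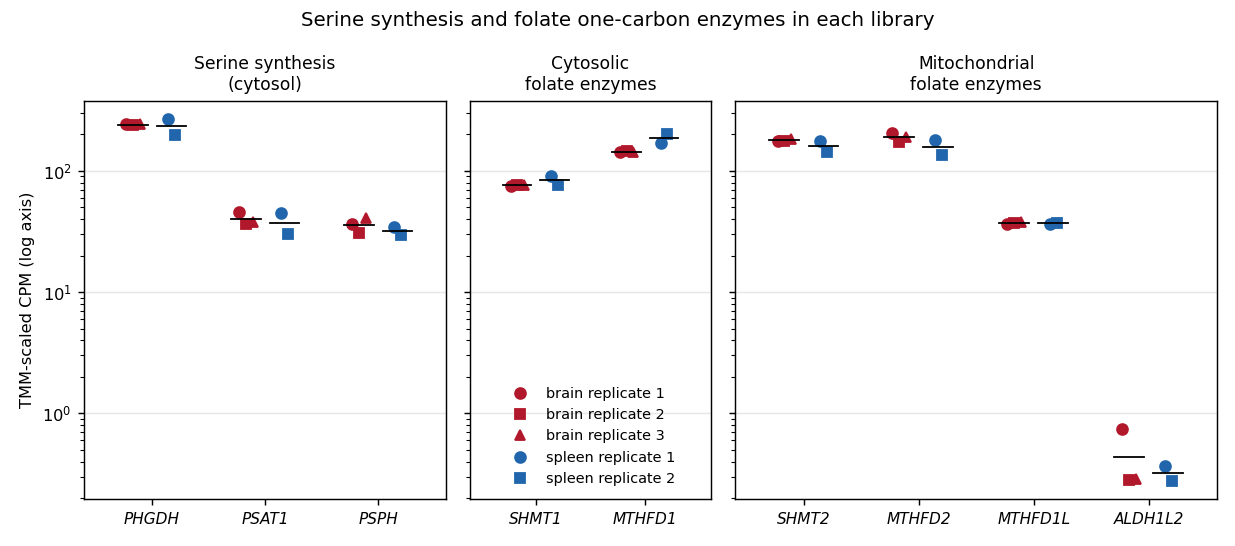
TMM-scaled CPM (log axis) of each enzyme in the brain (red, left) and spleen (blue, right) libraries, with the marker shape giving the replicate and a bar the group mean. MTHFD1 is the gene whose brain and spleen libraries do not overlap in CPM, and ALDH1L2 lies below 1 CPM in all 5 libraries.

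PHGDH, which oxidises 3-phosphoglycerate in the first step of serine synthesis (ENSG00000092621, GRCh38 chromosome 1, 119648411 to 119744218, plus strand), had 243.9, 236.5 and 241.2 CPM in brain replicates 1 to 3 and 267.8 and 197.7 CPM in spleen replicates 1 and 2. All 3 brain libraries lay between the 2 spleen libraries, which differed by 1.35-fold from each other. The means were 240.5 ± 3.76 CPM in brain (SD, n = 3) and 233 ± 49.6 CPM in spleen (SD, n = 2), a log2 fold change of 0.048 with a 95% interval of -0.25 to 0.35 (edgeR adjusted p = 0.873). Its sign depended on 1 library: leaving out spleen replicate 2 gave -0.16, and leaving out spleen replicate 1 gave 0.27.

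PSAT1, the aminotransferase of the second step (ENSG00000135069, chromosome 9, 78297125 to 78330093, plus strand), had 45.4, 36.1 and 38.02 CPM in brain replicates 1 to 3 and 44.8 and 30.0 CPM in spleen replicates 1 and 2. The groups overlapped, with the highest value in brain replicate 1 and the lowest in spleen replicate 2. The log2 fold change was 0.09 (95% interval -0.30 to 0.48, edgeR adjusted p = 0.804), and leaving out spleen replicate 2 gave -0.17, brain replicate 1 gave -0.013 and spleen replicate 1 gave 0.40. PSPH, the phosphatase that releases serine (ENSG00000146733, chromosome 7, 56011051 to 56051604, minus strand), had 36.7, 30.6 and 40.8 CPM in brain and 34.1 and 29.3 CPM in spleen. Again the lowest library was spleen replicate 2, and brain replicate 2 lay between the spleen libraries. Its log2 fold change was 0.18 (95% interval -0.13 to 0.50, edgeR adjusted p = 0.457), with 0.076 without spleen replicate 2 and 0.080 without brain replicate 3. The intervals of the 3 genes allow a change in brain of up to 1.27-fold, 1.40-fold and 1.41-fold upward for PHGDH, PSAT1 and PSPH, and down to 0.840-fold, 0.812-fold and 0.914-fold, so larger changes of these RNAs lie outside them.

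The cytosolic folate enzymes had the only negative fold changes among the 9. MTHFD1, the cytosolic enzyme with 3 activities that loads formate on tetrahydrofolate and interconverts its forms (ENSG00000100714, chromosome 14, 64388031 to 64463457, plus strand), had 142, 145 and 143 CPM in brain replicates 1 to 3 and 170.9 and 200 CPM in spleen replicates 1 and 2. Every brain library lay below both spleen libraries, and the coefficient of variation was 1.08% in brain and 11.1% in spleen. The means were 143 ± 1.55 CPM in brain (SD, n = 3) and 185 ± 20.6 CPM in spleen (SD, n = 2), a log2 fold change of -0.37 (SE 0.102, 95% interval -0.60 to -0.14). The edgeR adjusted p was 0.0534, just outside the threshold of 0.05, and over 15 alternative settings, DESeq2 and limma included, the adjusted p lay between 0.00365 and 0.628, with 6 settings past the threshold and the same sign in all 15. Of all genes, those 6 settings called lower 3.7% (DESeq2 size factors), 8.07% (DESeq2 Wald test), 3.46% (no filter on low counts), 6.01% (a filter of 1 CPM in 2 libraries), 3.6% (limma on the authors' rlog values) and 1.36% (without spleen replicate 1). Leaving out spleen replicate 1 gave -0.49 (edgeR adjusted p = 0.0432), while leaving out spleen replicate 2 gave -0.26 (0.223). By the Euclidean distance of centred log2 CPM over the 5 libraries, the genes most like MTHFD1 among 6500 compared were TTF2 (0.051), FAM120A (0.0512) and RRP12 (0.0715). With the mouse share as a covariate, a fit in which 0.612% of all genes passed (0.558% higher, 0.0539% lower), the log2 fold change was -0.27 (edgeR adjusted p = 0.628).

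SHMT1, the cytosolic serine hydroxymethyltransferase (ENSG00000176974, chromosome 17, 18327860 to 18363563, minus strand), had 74.8, 76.4 and 76.4 CPM in brain and 90.8 and 76.3 CPM in spleen. Spleen replicate 2 lay within the narrow brain range and spleen replicate 1 above it. Its log2 fold change was -0.14 (95% interval -0.37 to 0.096, edgeR adjusted p = 0.453), and leaving out spleen replicate 1 gave -0.016 while leaving out spleen replicate 2 gave -0.26. The genes SMCR8 (1782 to 2509 counts per library) and ZBTB25 (773 to 1058 counts) overlap SHMT1 and MTHFD1 on the opposite strand. ALDH1L2, with 13 to 29 counts, is overlapped on the opposite strand by WASHC4 (4381 to 6956 counts) and NOPCHAP1 (374 to 596 counts). NDUFA4L2 (62 to 145 counts) overlaps SHMT2 and SLC4A5 (58 to 108 counts) overlaps MTHFD2, also on the opposite strand. The library kit marks strand per the labels, and whether the counting used it is not given in the sources used here.

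The mitochondrial enzymes had positive fold changes and none passed. SHMT2, the mitochondrial counterpart of SHMT1 (ENSG00000182199, chromosome 12, 57229573 to 57234935, plus strand), had 175.8, 174.5 and 183.0 CPM in brain replicates 1 to 3 and 176.3 and 143.1 CPM in spleen replicates 1 and 2. Spleen replicate 1 lay within the brain range and spleen replicate 2 below it. The log2 fold change was 0.15 (95% interval -0.10 to 0.41, edgeR adjusted p = 0.440), and leaving out spleen replicate 2 gave 0.0089 while leaving out spleen replicate 1 gave 0.30. MTHFD2, the mitochondrial dehydrogenase and cyclohydrolase that is raised in many tumours (ENSG00000065911, chromosome 2, 74186172 to 74217565, plus strand), had 205.7, 172.2 and 190.0 CPM in brain and 178.5 and 135.9 CPM in spleen. Brain replicate 2 lay below spleen replicate 1, so the groups overlapped in CPM. The means were 189 ± 16.8 CPM in brain (SD, n = 3) and 157 ± 30.2 CPM in spleen (SD, n = 2), a log2 fold change of 0.27 (95% interval -0.042 to 0.58, edgeR adjusted p = 0.261). Leaving out spleen replicate 2 gave 0.081 and leaving out spleen replicate 1 gave 0.47, and none of the 15 alternative settings brought it past the threshold.

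MTHFD1L, which releases formate from the mitochondrial carrier (ENSG00000120254, chromosome 6, 150865679 to 151101887, plus strand), had the smallest fold change of the 9, at 36.4, 36.9 and 38.02 CPM in brain and 36.5 and 37.1 CPM in spleen. Its log2 fold change of 0.012 had a 95% interval of -0.20 to 0.22 (edgeR adjusted p = 0.956) and turned negative in 8 of 15 alternative settings, down to -0.011. MTHFD1L was also the one enzyme whose promoter window held the C/EBP-ATF response element searched for, TGATGNAA on either strand, to which the stress-response factor ATF4 is known to bind with C/EBP partners. Windows of 300 bases around the RefSeq transcription start (GRCh38.p14) held it in 1 of the 6 enzymes with an entry, in 3 of 11 genes of the ATF4 list and in 3.62% of all 35116 windows. PSPH, SHMT2 and ALDH1L2 had no entry. The stretch of MTHFD1L is shown with those of ASNS and CHAC1, 2 known ATF4 targets from the list described below, with the motif in capitals and each read 5′ to 3′ on the strand of its gene. The motif starts 129, 68 and 209 bases before the RefSeq transcription start, and in CHAC1 the motif is on the other strand. The stretches lie at chr6:150866346-150866375 (plus strand), chr7:97872458-97872487 (minus strand) and chr15:40953251-40953280 (plus strand). That of MTHFD1L falls inside the gene coordinates given above, so it is upstream of the RefSeq start only. A match of letters is not a measured binding site.
MTHFD1L: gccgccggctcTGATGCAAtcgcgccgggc
ASNS: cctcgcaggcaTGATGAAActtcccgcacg
CHAC1: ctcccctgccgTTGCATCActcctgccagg

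ALDH1L2, which oxidises formyl-folate in mitochondria (ENSG00000136010, chromosome 12, 105019784 to 105107643, minus strand), was close to the detection limit, with 29, 14 and 13 counts in brain replicates 1 to 3 and 16 and 14 counts in spleen replicates 1 and 2. In these counts brain replicate 1 stood above the other 4 libraries, which were alike. On the TPM scale over human transcripts, ALDH1L2 in spleen replicate 2 (0.495) was level with brain replicate 1 (0.494). The summed transcript estimates of ALDH1L2 were 112% to 132% of its gene counts, so the gene and transcript values differ for it. Its log2 fold change of 0.43 had a 95% interval of -0.77 to 1.62 (edgeR adjusted p = 0.678) and was -0.16 without brain replicate 1, so that these counts bear on no direction.

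**Figure D2:**
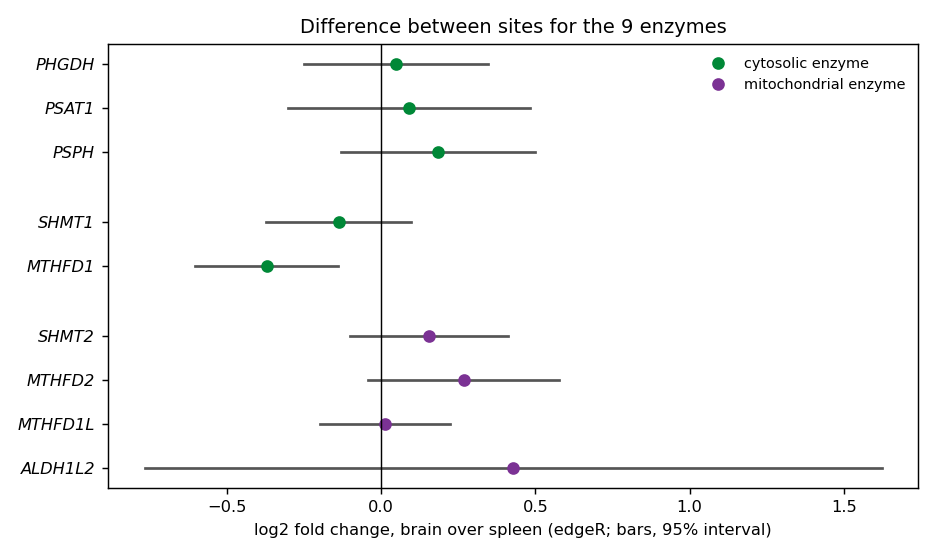
Log2 fold change, brain over spleen, of each enzyme from the edgeR fit, with lines for the 95% interval, cytosolic enzymes in green and mitochondrial ones in purple. SHMT1 and MTHFD1 lie left of 0, the other 7 enzymes right of it, and the interval of MTHFD1 (-0.60 to -0.14) is the one that leaves out 0.

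Spleen replicate 2 was the lowest of the 5 libraries for 6 of the 9 enzymes and the highest for MTHFD1. The brain libraries were closer to each other than the spleen libraries for 6 of the 9 by their coefficient of variation, for example 1.56% in brain against 21.3% in spleen for PHGDH and 2.58% against 14.7% for SHMT2. In the plot of fold changes with each library left out, the values without a spleen library stand farthest from those of all 5 libraries for PHGDH, PSAT1, SHMT1, MTHFD1, SHMT2 and MTHFD2.

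**Figure D3:**
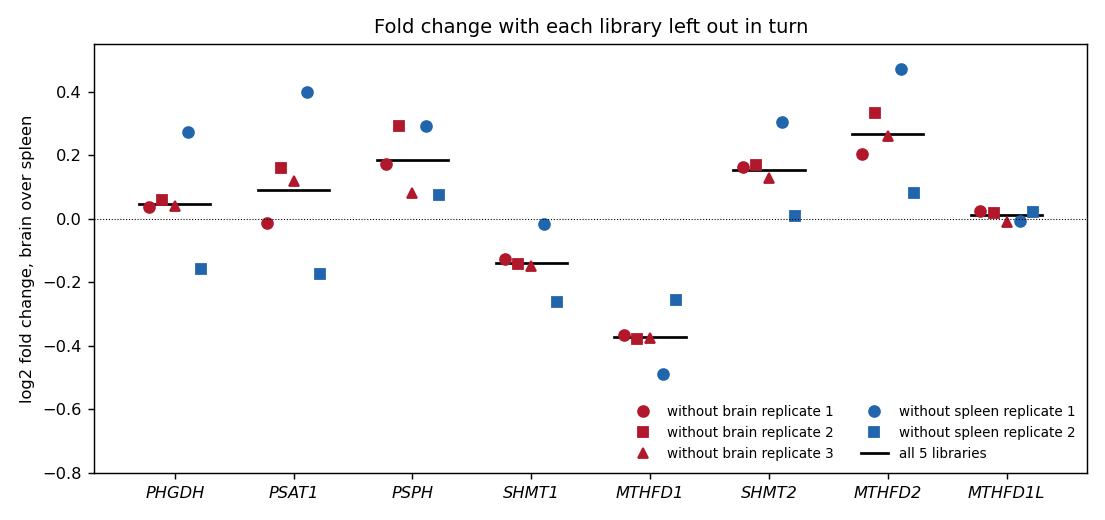
Log2 fold change, brain over spleen, of 8 enzymes with all 5 libraries (bars) and with each library left out (points; red where a brain library and blue where a spleen library is left out). MTHFD1 stays between -0.49 and -0.26, MTHFD2 between 0.081 and 0.47, and PHGDH lies on both sides of 0; ALDH1L2 is left out of the plot for its low counts.

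Levels can be compared between the enzymes on the TPM scale (a relative abundance that takes transcript length into account). TPM was rescaled here over the human transcripts of each library alone, because the deposited TPM counts mouse transcripts too. PHGDH was the most abundant, at 187 ± 1.27 TPM in brain (SD, n = 3) and 180 ± 17.1 TPM in spleen (SD, n = 2). MTHFD2 followed with 143 ± 9.92 TPM in brain and 118 ± 4.95 TPM in spleen, then SHMT2 with 139 ± 3.61 TPM in brain and 123 ± 0.806 TPM in spleen. MTHFD2 and SHMT2, neighbours in this order, did not differ beyond their spread. MTHFD1 stood at 79.3 ± 3.72 TPM in brain and 109 ± 24.7 TPM in spleen and SHMT1 at 49.4 ± 2.12 TPM in brain and 57.2 ± 0.203 TPM in spleen. Over all 5 libraries PSPH lay at 30.4 to 42.2 TPM, PSAT1 at 22.5 to 30.8 TPM and MTHFD1L at 18.3 to 21.4 TPM. PSPH and PSAT1 overlapped in this order, MTHFD1L lay below both, and ALDH1L2 was last at 0.255 to 0.495 TPM. By CPM per kilobase of the canonical transcript, PHGDH was at or above 97.4% of the genes tested, SHMT2 95.4%, MTHFD1 92.4%, MTHFD2 89.9%, SHMT1 86.9% and ALDH1L2 1.54%, so that MTHFD2, second by TPM, came after SHMT2 and MTHFD1 on this measure. The canonical MTHFD2 transcript has 4403 bases, and the most abundant ones, MTHFD2-205 and MTHFD2-203, have 1396 and 1757 bases. Transcripts annotated as targets of nonsense-mediated decay held 43.2% to 46.0% of MTHFD2 TPM and 16.2% to 31.0% of SHMT2 TPM.

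The mitochondrial enzymes held a larger part of the summed TPM of the 9 in brain. Their share was 45.0%, 44% and 44.4% in brain replicates 1 to 3 and 39.9% and 39.0% in spleen replicates 1 and 2. Every brain library lay above both spleen libraries, by 5.06 percentage points between the means. Rescaling to human transcripts leaves this share as it is, and the difference was 3.18 points with MTHFD1 left out, 3.43 with MTHFD2 left out and 3.62 when CPM per kilobase was used. No p is given for a score over enzymes chosen with results known. On the log2 CPM scale the mean of the mitochondrial enzymes minus that of the cytosolic ones was -1.43, -1.72 and -1.75 in brain replicates 1 to 3 and -1.84 and -1.86 in spleen replicates 1 and 2, again without overlap. The difference between the group means was 0.22, and 0.12 without brain replicate 1, the library with the highest ALDH1L2 value. ALDH1L2, at a few counts, weighs as much as any other enzyme in that mean.

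Ratios between enzymes that act on the same carbon unit in each compartment restate the same TPM values and are no separate evidence. In TPM, SHMT2 and MTHFD2 lay above, and SHMT1 and MTHFD1 below, in every brain library. The ratios SHMT2 over SHMT1 and MTHFD2 over MTHFD1 therefore had to separate the groups. The TPM of SHMT2 was 2.76, 2.77 and 2.93 times that of SHMT1 in brain replicates 1 to 3, and 2.17 and 2.14 times in spleen replicates 1 and 2. For MTHFD2 over MTHFD1 the ratio was 2.02, 1.60 and 1.82 in brain and 1.34 and 0.911 in spleen. For MTHFD1L over MTHFD1 it was 0.261, 0.253 and 0.266 in brain and 0.201 and 0.169 in spleen. Brain libraries were above spleen libraries in these 3 ratios, 2 of which share MTHFD1 as their divisor. No share over other gene pairs was computed to set beside them. For single genes on the TPM scale, 18.1% lay above and 18% below in every brain library. Within serine synthesis the ratios overlapped, with PSAT1 over PHGDH at 0.165, 0.134 and 0.140 in brain and 0.145 and 0.134 in spleen. PSPH over PHGDH was 0.189, 0.166 and 0.228 in brain and 0.158 and 0.192 in spleen. The mouse share was lower in brain as well, and its part in these ratios was not tested.

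**Figure D4:**
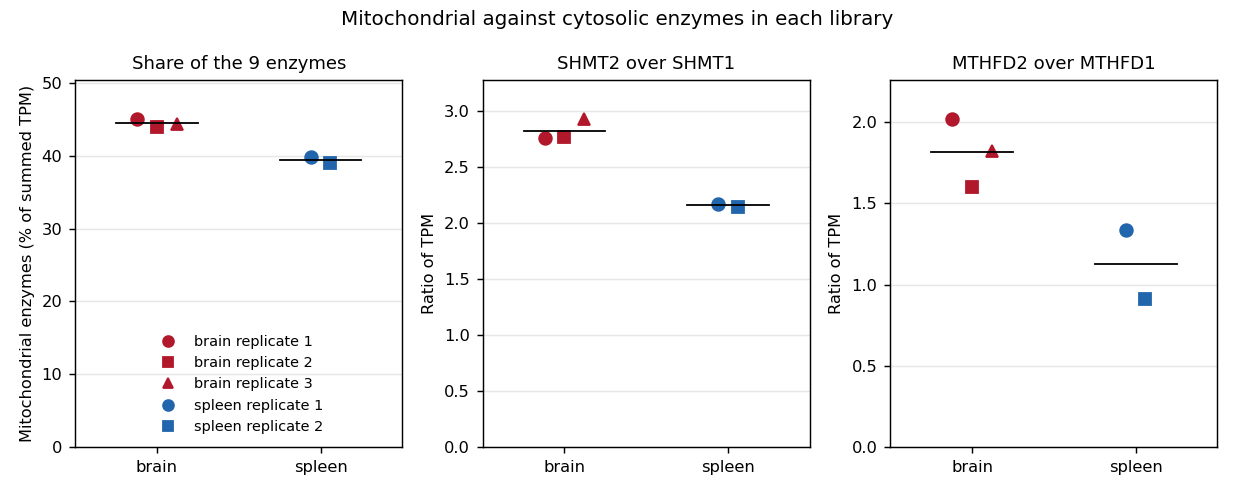
Share of the 4 mitochondrial enzymes in the summed TPM of the 9 (left) and TPM ratios of SHMT2 over SHMT1 (middle) and MTHFD2 over MTHFD1 (right), 1 point per library, brain left of spleen, bars for group means, all axes from 0. In each panel the 3 brain libraries lie above both spleen libraries, with shares of 44% to 45.0% in brain against 39.0% and 39.9% in spleen. Both ratios combine TPM values that already separate the groups.

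Transcript tables split each gene further, in deposited TPM. Of 108 transcripts of the 9 genes, 47 had a mean of at least 1 TPM, of which 9 lay higher in every brain library than in both spleen libraries, 6 lower, and 32 overlapped. Of all 47840 human transcripts at that level, 14.9% lay higher and 12.2% lower, so these counts are near the background. All 3 main MTHFD2 transcripts were in the first class. MTHFD2-205, annotated as a target of nonsense-mediated decay, had 61.5, 58.8 and 59.9 TPM in brain replicates 1 to 3 and 48.1 and 45.9 TPM in spleen replicates 1 and 2. The coding MTHFD2-203 had 50.7, 43.8 and 49.2 TPM in brain and 41.3 and 34.3 TPM in spleen. MTHFD2-201, also coding, had 19.18, 17.9 and 18.5 TPM in brain and 16.2 and 13.2 TPM in spleen. The main PHGDH transcript, PHGDH-202, overlapped between sites like its gene, at 162, 172 and 176 TPM in brain and 172 and 145 TPM in spleen. SHMT2 divided its reads unevenly: SHMT2-231, a decay-annotated form, had 14.2, 11.9 and 19.0 TPM in brain and 15.3 and 0.0064 TPM in spleen. The single near-zero value was in spleen replicate 2. Most MTHFD1 counts were in a transcript absent from GENCODE 44, recognised because its counts equalled what the matched transcripts left of the gene total, within 0.0205% in all 5 libraries. It had 50.7, 57.4 and 56.1 TPM in brain and 58.6 and 78.6 TPM in spleen, below in brain like the gene.

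Around the 9 enzymes, 7 lists of related genes with 49 members were read, of which 47 were tested. Of these, 8 were higher and 5 lower in brain and 34 did not pass (edgeR, against 6.01% higher and 3.5% lower over all genes). At an unadjusted p under 0.05 the counts were 12 and 8 (14.2% and 11.3% of all genes). By DESeq2 they were 9 and 7 (9.16% and 8.07% of all genes). The median log2 fold change was 0.056, against 0.0066 over all genes tested. Of the 13 called, 4 (DDIT4, SLC7A5, SESN2 and DDIT3) kept their call in each fit without 1 library and 9 lost it in at least 1. Each fit without 1 brain library also called fewer of all genes, 3.3% to 6.47% in either direction against 9.51% with all 5 libraries. Fits without 1 spleen library called fewer of all genes too, and they leave no spread within spleen. With the mouse share as a covariate 1 of the 13, DDIT4, kept its call, in a fit where 0.612% of all genes passed.

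Of 6 carriers of serine and glycine, 1 rose and none fell (6.01% and 3.5% of all genes), with a median of 0.21. SLC38A2, a sodium-coupled neutral amino acid transporter, had 428.8, 401.1 and 421.7 CPM in brain replicates 1 to 3 and 302.3 and 284.9 CPM in spleen replicates 1 and 2, with no overlap. It rose by 0.51 on the log2 scale (edgeR, adjusted p = 0.0164), and the adjusted p reached 0.0798 without 1 brain library (replicate 1 or 2 lost the call). SFXN1, the mitochondrial serine carrier, stood at 0.056 on the log2 scale, brain over spleen (edgeR, adjusted p = 0.770).

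Of 8 genes tested for folate entry and retention, none rose and 2 fell (6.01% and 3.5% of all genes), with a median of -0.067. SLC19A1, the reduced folate carrier that also imports methotrexate, had 77.3, 75.3 and 77.3 CPM in brain and 105.1 and 96.5 CPM in spleen, log2 fold change -0.40 (edgeR, adjusted p = 0.0317). FPGS, which adds the glutamate tail that keeps folates and methotrexate in the cell, had 144.3, 149.9 and 123.5 CPM in brain and 212.1 and 178.8 CPM in spleen, log2 fold change -0.49 (edgeR, adjusted p = 0.0386). Both lay lower in every brain library than in the spleen libraries, and both lost the call whichever of brain replicates 1 to 3 or spleen replicate 1 was left out, with adjusted p up to 0.131 for SLC19A1 and 0.168 for FPGS. With the replicate block, in which the replicate number stands for the occasion, the adjusted p of FPGS was 0.0600. The column codes number the spleen libraries otherwise than their titles, so this block may not pair libraries of 1 occasion. FOLR1 was not tested, with 4 counts in spleen replicate 2 and 0 elsewhere.

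Among 6 other folate enzymes none passed in either direction by edgeR (9.51% of all genes), with a median of -0.026. At an unadjusted p under 0.05, 0 were higher and 1 lower (14.2% and 11.3% of all genes). DESeq2 called none (9.16% of all genes higher and 8.07% lower). Of 4 genes of glycine cleavage, none rose and 1 fell (6.01% and 3.5% of all genes), with a median of -0.15. GCSH, the lipoyl carrier protein of that system, had 47.2, 33.8 and 39.4 CPM in brain and 75.6 and 62.1 CPM in spleen, log2 fold change -0.78 (edgeR, adjusted p = 0.0153, and 0.0639 without spleen replicate 1). GLDC, the decarboxylase of the system, named after its values were seen, went the other way without passing, at 6.94, 9.46 and 7.29 CPM in brain and 6.54 and 3.13 CPM in spleen (log2 fold change 0.71, edgeR adjusted p = 0.170). Without spleen replicate 1 GLDC was past the threshold (1.32, edgeR adjusted p = 0.0232), as it was with no filter on low counts (0.71, edgeR adjusted p = 0.0135), and it was 0.27 without spleen replicate 2.

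Of the 3 enzymes that use folate-bound carbon for nucleotides, none rose and 2 fell (6.01% and 3.5% of all genes). Their median log2 fold change was -0.38. All 3 lay lower in every brain library than in both spleen libraries, as did 19.5% of all genes tested. GART, of purine synthesis, had 129.3, 129.5 and 139.3 CPM in brain and 180.0 and 172.0 CPM in spleen, log2 fold change -0.41 (edgeR, adjusted p = 0.0309). ATIC, which does the last steps of that pathway, had 154.7, 150.4 and 168.4 CPM in brain and 208.6 and 201.8 CPM in spleen, log2 fold change -0.38 (edgeR, adjusted p = 0.0439). The 2 calls were close to the threshold: ATIC lost its call whichever of the 5 libraries was left out (edgeR adjusted p up to 0.155) and GART without brain replicate 1 or 2 or either spleen library (up to 0.124). TYMS, thymidylate synthase, stood at -0.18 on the log2 scale, brain over spleen (edgeR, adjusted p = 0.359).

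Of 6 genes tested of the methionine cycle and transsulfuration, 1 rose and none fell (6.01% and 3.5% of all genes). Their median log2 fold change was 0.037. CTH, which makes cysteine from cystathionine, was low, at 2.15, 1.78 and 2.29 CPM in brain and 0.889 and 0.893 CPM in spleen, and rose by 1.21 on the log2 scale (edgeR, adjusted p = 0.0203, and up to 0.0853 without brain replicate 1 or either spleen library). CBS was not tested, with 1 count in all.

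ATF4 is a factor known to activate PHGDH, PSAT1, SHMT2 and MTHFD2 under amino acid shortage. Of 14 regulators and other targets of ATF4, 6 rose and none fell (6.01% and 3.5% of all genes), with a median of 0.36. DDIT4, an inhibitor of mTORC1, had 72.5, 93.7 and 68.1 CPM in brain and 19.4 and 18.2 CPM in spleen, log2 fold change 2.05 (edgeR, adjusted p = 0.000228). SLC7A5, the light chain of the leucine transporter, had 291, 316 and 289 CPM in brain and 159 and 137 CPM in spleen, log2 fold change 1.01 (edgeR, adjusted p = 0.00122). SESN2, a leucine sensor, had 24.4, 25.7 and 26.5 CPM in brain and 14.5 and 11.2 CPM in spleen, log2 fold change 0.99 (edgeR, adjusted p = 0.00353). DDIT3, TRIB3 and XPOT, named after their values were seen, were the other 3 that rose. TRIB3 (adjusted p = 0.0453) lost its call without brain replicate 1 or 2 or spleen replicate 2, and XPOT (0.0499) whichever library was left out and, at 0.0528, with the replicate block. ATF4 itself had 530.7, 570.7 and 608.6 CPM in brain and 581.4 and 417.3 CPM in spleen, which overlapped (log2 fold change 0.19, edgeR adjusted p = 0.466). One spleen library set the sign of ATF4, at 0.44 without spleen replicate 1 and -0.031 without spleen replicate 2, and it was -0.17 with the mouse share as covariate. MYC, a further regulator of serine and folate genes, stood at -0.065 on the log2 scale, brain over spleen (edgeR, adjusted p = 0.785). The remaining genes of the list, named after their values were seen, did not pass by edgeR. Above 0 were CHAC1 (log2 fold change 0.51, edgeR adjusted p = 0.123), ASNS (0.36, 0.0582), CEBPB (0.35, 0.203) and SLC3A2 (0.14, 0.497). Below 0 were EIF4EBP1 (-0.18, 0.434) and SLC7A11 (-0.33, 0.352). ASNS passed by the DESeq2 Wald test (adjusted p = 0.0275), and CHAC1 was -0.038 with summed transcript estimates. The 9 enzymes and these lists were chosen with earlier results of these data known, so their counts describe them and are no independent test.

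**Figure D5:**
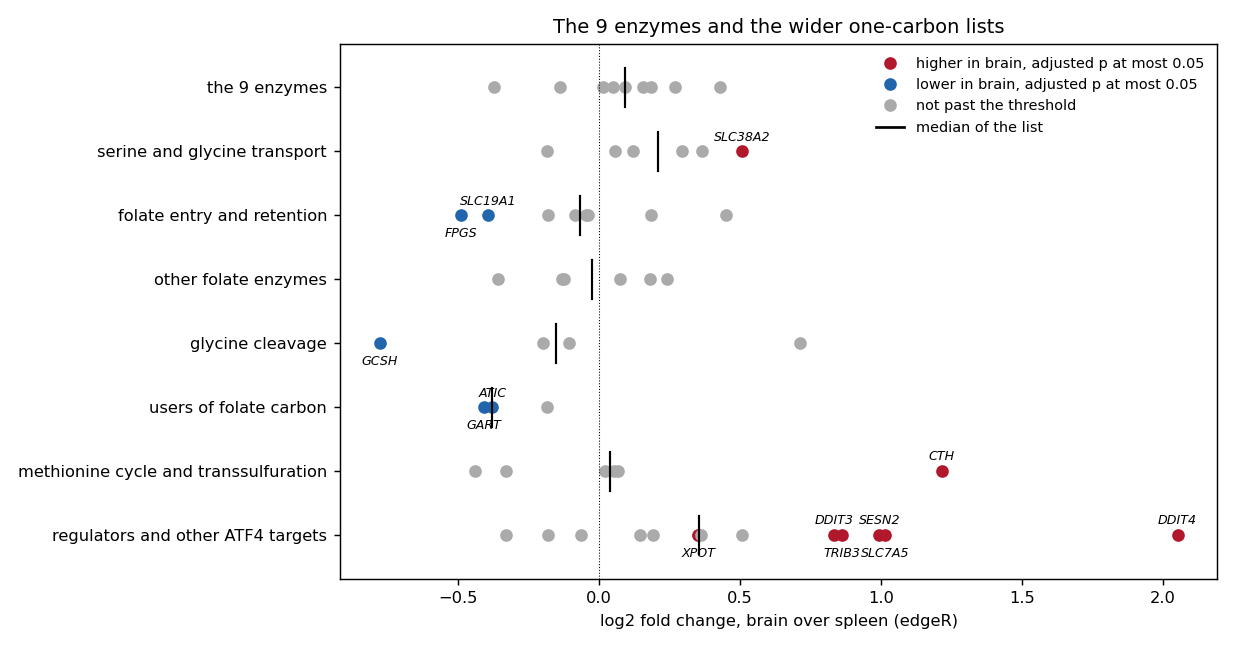
Log2 fold change, brain over spleen, of the 9 enzymes (top row) and of the genes tested in each related list, with coloured, named points past the edgeR threshold (red higher, blue lower), grey points not past it and a bar at each median. Called genes of the ATF4 list lie right of 0, up to 2.05 for DDIT4, and those of folate entry, glycine cleavage and folate-carbon use lie left of it.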

How the data were processed

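RNA of REH cells from brain (3 libraries) and spleen (2 libraries) was sequenced; per the submitters' processing notes, bcl2fastq 1.8.4, cutadapt 1.5, kallisto 0.42.4 and DESeq2 were used with GRCh38 and GRCm38. The deposited gene table holds estimated counts, given per human gene as whole numbers (sums of transcript estimates were rounded here); the deposited transcript tables hold estimated counts and TPM per human and mouse transcript, and a further deposited table holds rlog values on a log2 scale. Beyond the mapped libraries, the gene tables held 1 further column of values each, which was not used. Of 65217 gene identifiers 86.36% matched GENCODE 44, with 99.76% of counts. Depth is given as total counts, and it limits precision for ALDH1L2 in particular. Mouse transcripts could not be named here and were used as a total share.

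Genes were filtered by filterByExpr, scaled by TMM and tested between sites with edgeR 4.0.16 (quasi-likelihood, 3 residual degrees of freedom, Benjamini-Hochberg over 20419 genes, threshold 0.05) in R 4.3.3; alternatives used DESeq2 1.42.0 and limma 3.58.1. The script was tested on simulated data. TPM was summed per gene. Promoter windows came from RefSeq (GRCh38.p14). The members and lists were chosen with earlier results of these data known. Named were the 9 enzymes, ATF4, MYC, and up to 3 members past the threshold with the smallest p in each list (the most abundant where none passed). Also named were 3 genes most like the enzyme with the smallest p. Others are named as chosen after their values were seen: SFXN1, GLDC, TYMS, FOLR1, CBS, DDIT3, TRIB3, XPOT, ASNS, CHAC1, CEBPB, SLC3A2, EIF4EBP1 and SLC7A11. Values of some members of the related lists are not reported here. Per the labels the replicate number marks the occasion, which would pair brain with spleen. Same-numbered libraries deviated from their group means with correlations of -0.0251 and 0.146. With 2 spleen libraries, a brain library correlates equally and oppositely with each, so these values cannot settle which libraries belong together. The column codes number the spleen libraries differently from the titles, so the replicate block may pair the wrong libraries. Libraries of 1 site are separate occasions, each a pool of mice, and the main fit takes no account of a possible pairing between sites. Its p-values rest on the spread between pools of a site, combined with the spread over all genes (prior degrees of freedom 5.9).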

Additional observations from a re-analysis of the deposited data

How the results depend on the processing

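No setting brought an enzyme past the threshold as higher in brain. MTHFD1 passed as lower, making 1 lower among the 9 in place of 0, with DESeq2 size factors (log2 fold change -0.39), the DESeq2 Wald test (-0.39), no filter on low counts (-0.38), a filter of 1 CPM in 2 libraries (-0.38), limma on the authors' rlog values (-0.25) and without spleen replicate 1; its range without 1 library was -0.49 to -0.26, and the number lower ranged over 0 to 1. MTHFD1L changed sign with DESeq2 size factors (-0.0066), the Wald test (-0.0066), the replicate block (-0.0053), the mouse share as covariate (-0.011), summed transcripts (-0.0041) and rlog values (-0.0027), and ranged over -0.010 to 0.026 without 1 library. With the mouse share as covariate PHGDH was -0.14 and SHMT2 -0.016. Without 1 library PHGDH ranged over -0.16 to 0.27, PSAT1 over -0.17 to 0.40 and ALDH1L2 over -0.16 to 0.67; the filter of 1 CPM leaves ALDH1L2 out. The cause of these changes was not tested. With the replicate block no enzyme changed its call (MTHFD1 -0.37, adjusted p = 0.0638), and 2 of the 13 called related genes lost theirs.

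The mitochondrial share differed by 7.07 points without PHGDH, 3.18 without MTHFD1, 3.43 without MTHFD2 and 3.62 by CPM per kilobase (chosen after seeing the data), and by 4.61 to 5.50 without 1 library. The mitochondrial minus cytosolic log2 difference was 0.44 without the serine synthesis enzymes, against 0.22 with them, and 0.12 to 0.28 without 1 library, lowest without brain replicate 1. In the related lists the mouse covariate left 1 higher and 0 lower, and leaving out 1 library gave 4 to 8 higher and 0 to 4 lower. Without the ATF4 list (chosen after seeing the data) 2 were higher and 5 lower, 0 and 0 with the mouse covariate, and 0 to 2 and 0 to 4 without 1 library.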

Other observations

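Some related genes outside the naming rule, chosen after their values were seen, did not pass but had brain and spleen libraries that did not overlap. The same held for the libraries of 42.8% of all genes tested. AHCY, which clears S-adenosylhomocysteine, had 160.2, 164.6 and 174.7 CPM in brain and 254.4 and 197.6 CPM in spleen (log2 fold change -0.44, edgeR adjusted p = 0.0555). MAT2A, which makes S-adenosylmethionine, had 459.0, 513.0 and 439.0 CPM in brain and 591.2 and 590.2 CPM in spleen (log2 fold change -0.33, edgeR adjusted p = 0.0862). MTHFD2L, a mitochondrial relative of MTHFD2, had 19.1, 17.1 and 15.0 CPM in brain and 21.8 and 21.8 CPM in spleen, log2 fold change -0.36 (edgeR adjusted p = 0.114), opposite in sign to that of MTHFD2.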
